A study of Mus musculus with 25 samples.

Results

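The genes described here are the 10 that encode the cohesin ring, the factors that load it onto DNA and the factors that release it. They were taken by name with earlier results of these data known, so that counts over them are a description. All 10 were found among the 23116 genes of the deposited table, and all 10 passed the filter on low values that left 19296 genes to test. *Smc1a*, *Smc3* and *Rad21* encode the ring, *Stag1* and *Stag2* encode the 2 alternative subunits bound to it, *Nipbl* and *Mau2* encode the loader, and *Wapl*, *Pds5a* and *Pds5b* encode factors that act on its release.

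RNA-seq had been performed on HSLAM cells, a bone marrow population sorted as LSK+ CD150+ CD48- and rich in hematopoietic stem cells, from C57BL/6 male mice of 8 to 12 weeks. The 3 control libraries were from *Znf143 f/f* mice without the *Rosa26ERT2-Cre* allele (Cre-) and the 3 deleted libraries from littermates that carried it (Cre+), called *Znf143 f/f* (control) and *Znf143 -/-* (deleted) below. Mice of both genotypes carried loxP sites around exon 1 of *Znf143* and were given tamoxifen at the middle of the dosages tested, for 10 days, so that the Cre allele was present in the *Znf143 -/-* group only. The *Rosa26* locus is known to be active in nearly all cell types, and excision outside hematopoietic cells was not measured here. An effect of the Cre recombinase itself cannot be told apart from that of the deletion. The sample labels call the deleted genotype a CTCF knockout. The gene encoding ZNF143, listed under its mouse symbol *Zfp143*, had an FPKM (fragments mapped to a gene, scaled by its length and by the size of the library) of 3.06, 4.03 and 3.63 in *Znf143 f/f* and of 0.145, 0.303 and 0.326 in *Znf143 -/-* libraries. That is a log2 fold change of -3.39 (SE 0.278, limma with Benjamini-Hochberg adjustment, adjusted p = 0.00045). *Ctcf* had an FPKM of 29.6 to 30.2 in *Znf143 f/f* and of 27.5 to 32.0 in *Znf143 -/-* libraries, so that the level of *Zfp143*, and not that of *Ctcf*, goes with the labelled genotype. ChIP-seq and HiC samples, which make up the other part of the 25 samples of the series, were not analysed here.

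Cohesin is a ring-shaped complex that encircles DNA. Together with its loader it extrudes chromatin loops until it meets a barrier such as CTCF bound to its motif, and it also holds sister chromatids together until mitosis. WAPL and the PDS5 proteins open the ring and take it off chromatin, and mutations of cohesin subunits recur in human myeloid malignancies. ZNF143 is a zinc finger protein that binds a long sequence element, mostly at promoters. The study raised the possibility that loss of ZNF143 alters another chromatin structure factor and so changes loops indirectly. To exclude it, the study compared ZNF143 binding at CTCF motifs between anchors of changed and unchanged loops. It reported more ZNF143 at the changed anchors, less CTCF at ZNF143-dependent anchors, and unaffected CTCF mRNA and protein. Loops were measured there in LSK cells and binding in lineage- c-kit+ cells. The cohesin genes are compared here at the RNA level, in HSLAM cells only.

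To see which cohesin genes carry letters of the ZNF143 element at their own start, the promoters of a RefSeq table (GRCm38.p6, from 250 bases before to 50 bases after a start) were searched on both strands. The searched letters were TCCCAGCA, the letters CCCAG and ATGC with any 1 base between them, and the letters ACTACA and TCCC with any 2 bases between them. The first and the second of these searches share the letters CCCAG and can overlap, and so can the first and the last at TCCC. The table held 8 promoters for 7 of the 10 genes and none for *Rad21*, *Stag2* and *Nipbl*. A match was found in the promoters of 2 genes, *Smc1a* and *Wapl*, which are shown for this reason, 5' to 3' on the strand of the gene, with the matched letters in capitals. The match began 249 bases before the start of *Smc1a* and 162 bases before that of *Wapl*.
*Smc1a* (GRCm38.p6, chrX:152016178-152016427, plus strand): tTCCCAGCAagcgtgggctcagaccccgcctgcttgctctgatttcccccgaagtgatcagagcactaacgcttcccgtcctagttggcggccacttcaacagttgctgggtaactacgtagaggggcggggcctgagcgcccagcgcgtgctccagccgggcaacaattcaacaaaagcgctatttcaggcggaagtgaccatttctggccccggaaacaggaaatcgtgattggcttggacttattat
*Wapl* (GRCm38.p6, chr14:34673678-34673927, plus strand): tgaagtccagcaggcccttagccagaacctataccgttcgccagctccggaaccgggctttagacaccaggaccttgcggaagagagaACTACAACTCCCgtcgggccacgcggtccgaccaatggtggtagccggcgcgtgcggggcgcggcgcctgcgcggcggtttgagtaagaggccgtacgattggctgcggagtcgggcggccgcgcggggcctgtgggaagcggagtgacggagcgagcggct
The letters in the *Smc1a* promoter were those of TCCCAGCA, found in 3.45% of all 32851 promoters of the table. In the *Wapl* promoter, ACTACAACTCCC matched the search for ACTACA and TCCC, whose letters were found in 1.81% of all promoters. The search for CCCAG and ATGC matched 1.00% of all promoters and none of the cohesin promoters in the table, and 5.64% of all promoters held at least 1 of the 3. The match is a description of letters, and binding at these promoters was not analysed here.

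Fragments could be recovered from FPKM and gene length, and the libraries held 38643255 to 57895793 of them on genes. Each cohesin gene had between 2140 fragments (*Stag1*) and 10177 fragments (*Smc1a*) in a library. The FPKM of the third *Znf143 -/-* library had been computed with the divisor of the second (48378188), although 57895793 fragments lay on its genes, which makes its values 1.20 times those obtained with its own total. As deposited, the third library was the highest of its genotype for 10 of 10 cohesin genes. After division by median-of-ratios size factors, which were between 0.906 and 1.20, it was the highest for 2 of 10. Results are therefore given for the FPKM as deposited and for the rescaled FPKM. The scaling moved all genes together: the median log2 fold change over all tested genes was 0.11 as deposited and 0.0065 rescaled.

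All 10 genes were expressed in HSLAM cells of *Znf143 f/f* mice, at levels that differed 9.94-fold between the highest and the lowest. *Smc1a* had the highest FPKM as deposited, 36.1 ± 3.01 (SD, n = 3), and lay at the 90.3 percentile of the tested genes. *Smc3* with 24.7 ± 0.912 and *Rad21* with 23.6 ± 2.61 followed. The ranges of these 2 genes overlapped and both lay below *Smc1a* in every library, although SMC1A, SMC3 and RAD21 stand in equal numbers in the ring. *Wapl* was next with 13.6 ± 2.29, without overlap with *Rad21* above or *Stag2* below it.

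The remaining genes were expressed at lower levels. *Stag2* with 8.41 ± 0.938 and *Nipbl* with 8.31 ± 0.133 had overlapping ranges, and *Nipbl* lay above *Mau2* (6.71 ± 0.764) in every control library. Neighbouring ranges also overlapped between *Mau2* and *Pds5b* (5.93 ± 1.08) and between *Pds5b* and *Stag1* (5.32 ± 0.608). *Pds5a* was the lowest with 3.63 ± 0.255, at the 57.7 percentile, below *Stag1* in every library. These levels are per length of the listed gene model, which equals the summed exon length in GENCODE mouse release M21 for 9 of the 10 genes. For *Nipbl* the listed length was 8815 bases and the summed exon length 9423 bases.

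**Figure D1:**
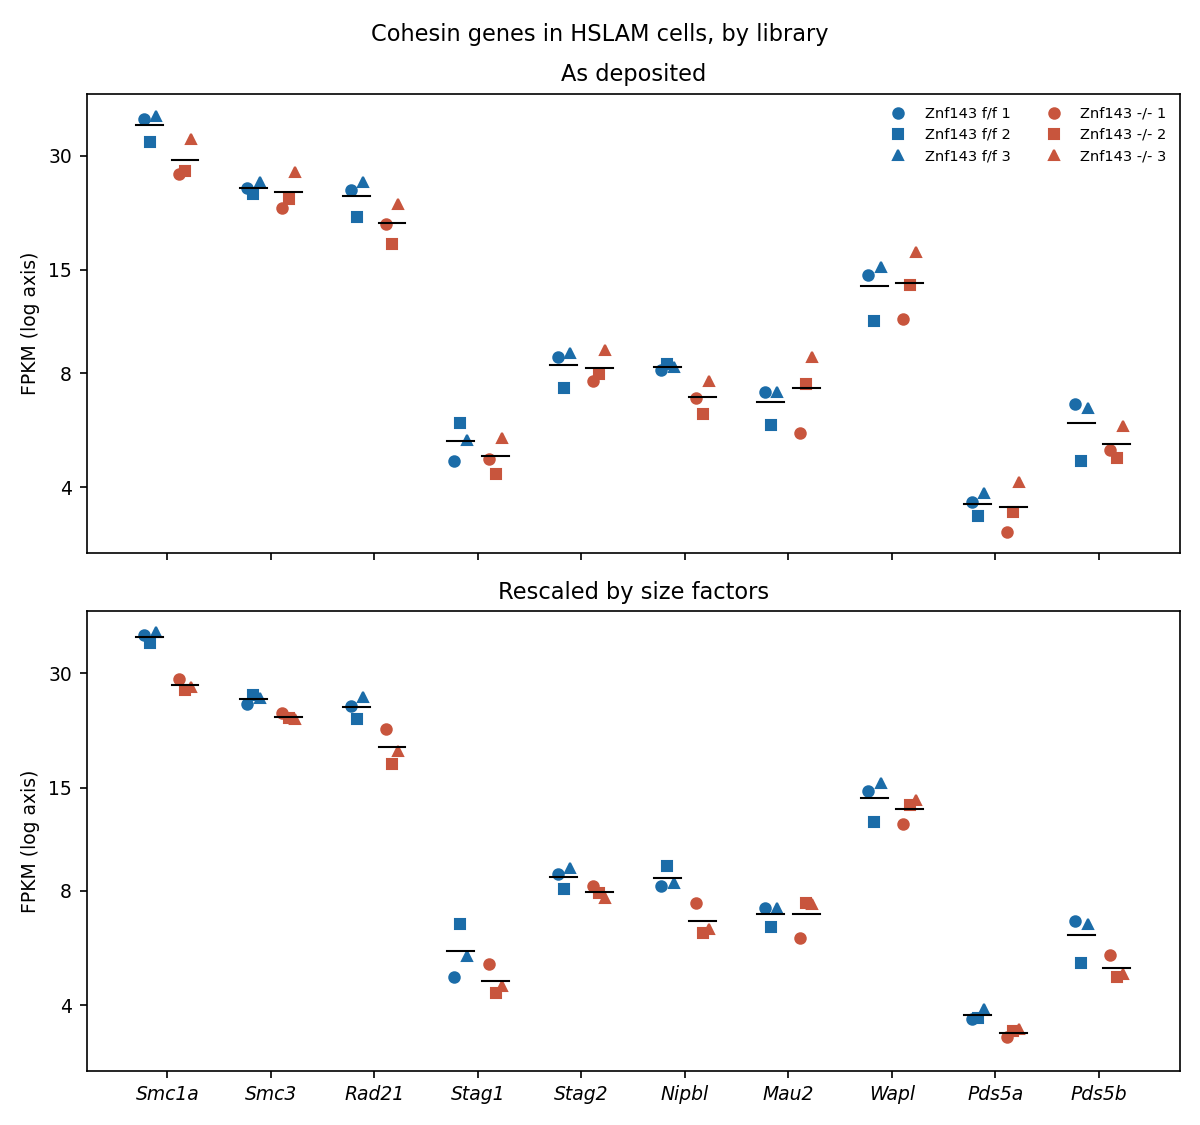
FPKM of the 10 cohesin genes in each library (log axis), as deposited in the upper panel and rescaled by size factors in the lower panel. Blue marks are *Znf143 f/f* and red marks *Znf143 -/-* libraries, the shape gives the replicate number, and the black bars are means of 3 libraries. *Smc1a* is the highest gene in both panels, and its genotypes stand apart only after rescaling.

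Between genotypes, *Smc1a* was the 1 of the 10 cohesin genes that passed the test with all 6 libraries, and it did so after rescaling and with limma's voom on recovered fragments, but not on the FPKM as deposited. As deposited, 8 of the 10 genes had a lower mean log2 FPKM in *Znf143 -/-* libraries, where 38% of all tested genes did, and 2 (*Mau2* and *Wapl*) a higher one. The median over the 10 genes was -0.089, against 0.11 over all genes. None of the 10 passed an adjusted p of 0.05 with limma, where 4.32% of all tested genes did, none had an unadjusted p under 0.05, where 19.1% did, and the adjusted p was between 0.317 and 0.974. With limma's voom on the recovered fragments, 1 of the 10 passed, where 7.3% of all genes did. After rescaling, 10 of 10 had a negative log2 fold change, where 49.3% of all genes did. The median was then -0.20, against 0.0065 over all genes. *Smc1a* passed an adjusted p of 0.05, where 5.98% of all genes did and 2.99% did so with a lower value in *Znf143 -/-*, and 3 of the 10 (*Smc1a*, *Rad21* and *Nipbl*) had an unadjusted p under 0.05, where 11.8% of all genes did with a lower value. The genotypes did not overlap for 1 of the 10 genes as deposited, where 8.43% of all genes were lower without overlap, and for 5 of 10 after rescaling, where 15.3% were.

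**Figure D2:**
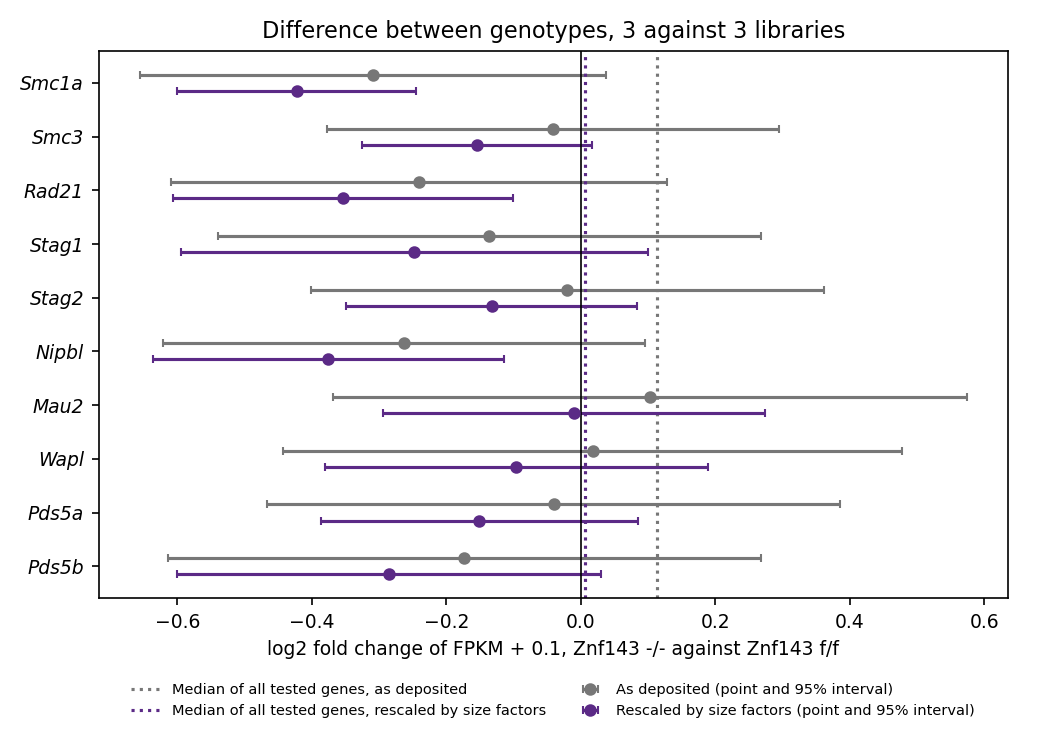
Log2 fold change of each cohesin gene between *Znf143 -/-* and *Znf143 f/f* libraries, on the scale of log2(FPKM + 0.1). Points are estimates from limma over 3 against 3 libraries and bars their 95% confidence intervals, grey as deposited and purple rescaled. Dotted lines give the median of all tested genes, and after rescaling the intervals of *Smc1a*, *Rad21* and *Nipbl* exclude 0.

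The ring genes are described first. *Smc1a* (ENSMUSG00000041133.11, chromosome X of GRCm38, 152016428 to 152062694, plus strand) encodes 1 of the 2 coiled-coil ATPases of the ring. Its FPKM as deposited was 37.5, 32.6 and 38.1 in control and 26.9, 27.4 and 33.2 in deleted libraries. The third deleted library lay above the lowest control library, and the log2 fold change was -0.31 (SE 0.153, adjusted p = 0.317). Rescaled, the FPKM was 37.8, 36.0 and 38.6 in control and 29.0, 27.1 and 27.7 in deleted libraries. The 3 deleted libraries then lay below the 3 controls, with means of 27.9 ± 0.954 and 37.5 ± 1.32 (SD, n = 3). Mean FPKM in *Znf143 -/-* was 74.5% of that in *Znf143 f/f*, and the log2 fold change was -0.42 (SE 0.0742, 95% confidence interval -0.60 to -0.25, adjusted p = 0.0258). Of all tested genes, 15.7% had a log2 fold change below that of *Smc1a*. Over the 6 rescaled values, an exact permutation test (two-sided) gave p = 0.1, which is the smallest that 3 against 3 libraries allow.

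That call of *Smc1a* was lost with 4 of the 6 libraries left out in turn after rescaling. Without the first control library the adjusted p was 0.119, without the third 0.142, without the second deleted library 0.115 and without the third 0.153. It held when the second control library (0.0214) or the first deleted library (0.0190) was left out. Over all tested genes, 2286 and 2113 passed in these 2 fits, against 1154 with all libraries. In the 4 fits where the call was lost, 223 to 370 of all tested genes passed. The log2 fold change itself was between -0.45 and -0.40 in these 6 fits. The call was also lost with the replicate number as a block (adjusted p = 0.143) and without limma's variance trend (adjusted p = 0.0709), both on the rescaled values. By the account of the study the mice came as 3 littermate pairs, but which libraries belong to 1 pair was not given in the sources used here. When, in place of rescaling, the own total of the third deleted library was its divisor, the log2 fold change was -0.40 and the adjusted p was 0.0665, with 0 of the 10 genes and 5.19% of all genes passing, and with limma's voom on the recovered fragments they were -0.43 and 0.0245.

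*Rad21* (ENSMUSG00000022314.10, chromosome 15, 51962240 to 51991747, minus strand) encodes the kleisin that closes the ring and is cut by separase at anaphase. Its FPKM was 24.4, 20.6 and 25.6 in control and 19.9, 17.5 and 22.4 in deleted libraries as deposited, with overlap between genotypes. After rescaling it was 24.6, 22.8 and 25.9 against 21.4, 17.3 and 18.7. All 3 deleted libraries then lay below the controls, the first of them by the smallest margin. The rescaled log2 fold change was -0.35 (SE 0.106, 95% confidence interval -0.61 to -0.10), which did not pass (adjusted p = 0.104 with limma). As deposited it was -0.24 (adjusted p = 0.465). Without the first deleted library, the rescaled value passed (-0.44, adjusted p = 0.0360 with limma). In that fit 2113 of all tested genes passed, against 1154 with all libraries.

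*Smc3* (ENSMUSG00000024974.10, chromosome 19, 53600398 to 53645833, plus strand) encodes the other ATPase, which is acetylated when cohesin is locked on DNA. As deposited its FPKM was 24.6, 23.8 and 25.6 in control and 21.9, 23.1 and 27.3 in deleted libraries, and the log2 fold change was -0.041 (adjusted p = 0.913). After rescaling the values were 24.8, 26.3 and 25.9 against 23.6, 22.8 and 22.7. The genotypes did not overlap, but the log2 fold change was small, -0.15 (SE 0.0716, 95% confidence interval -0.33 to 0.016, adjusted p = 0.245). The summed FPKM of the 3 ring genes as deposited was 77.0 to 89.4 in control and 68.0 to 82.9 in deleted libraries. These ranges overlapped. After rescaling they were 85.0 to 90.4 and 67.3 to 74.0, with *Smc1a* the highest of the 3 genes.

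*Stag1* and *Stag2* encode the subunits of which each cohesin complex holds 1. *Stag2* (ENSMUSG00000025862.14, chromosome X, 42149317 to 42277185, plus strand) is the more often mutated of them in myeloid disease. Its FPKM was 8.82, 7.33 and 9.07 in control and 7.64, 7.98 and 9.22 in deleted libraries as deposited, with ranges that almost coincide. The log2 fold change was -0.020 as deposited and -0.13 rescaled (95% confidence interval -0.35 to 0.084, adjusted p = 0.425). *Stag1* (ENSMUSG00000037286.15, chromosome 9, 100597798 to 100959375, plus strand) had an FPKM of 4.71, 5.92 and 5.34 against 4.75, 4.35 and 5.40. Its spread inside the controls (SD 0.608) was wider than the distance between the means of 5.32 and 4.83, and the log2 fold change was -0.14 as deposited and -0.25 rescaled (95% confidence interval -0.60 to 0.099, adjusted p = 0.352). Both intervals include 0 and also decreases larger than the rescaled estimate for *Smc3*, and neither gene was shown to be equal between genotypes. A stretch of 28 exon bases of *Stag2* is shared with *Gm37564* on the opposite strand, and the library kit does not mark strand.

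Neither of the loader genes passed the test in either scaling. *Nipbl* (ENSMUSG00000022141.7, chromosome 15, 8290617 to 8444463, minus strand) encodes the loader protein that acts together with cohesin in loop extrusion. Its FPKM was 8.18, 8.45 and 8.30 in control and 6.90, 6.25 and 7.64 in deleted libraries as deposited. *Nipbl* was the 1 gene of the 10 whose genotypes did not overlap as deposited. On that scale only, its controls were the most alike of all 10 genes (SD 0.133, and 0.582 after rescaling). The log2 fold change was -0.26 as deposited (adjusted p = 0.409). Rescaled, the FPKM was 8.25, 9.32 and 8.39 against 7.44, 6.18 and 6.36, again without overlap. The rescaled log2 fold change was -0.38 (SE 0.11, 95% confidence interval -0.64 to -0.11), which missed the threshold after adjustment (adjusted p = 0.0983 with limma). It passed when the first deleted library was left out (-0.46, adjusted p = 0.0360 with limma), in a fit where 2113 of all tested genes passed, against 1154 with all libraries.

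*Mau2* (ENSMUSG00000031858.16, chromosome 8, 70016123 to 70042734, minus strand) encodes the partner that stabilises NIPBL. Its FPKM as deposited was 7.16, 5.83 and 7.15 in control and 5.56, 7.51 and 8.86 in deleted libraries. The first deleted library was the lowest of all 6 and the other deleted libraries were the highest, so that the genotypes overlapped fully. The log2 fold change was 0.10 as deposited (adjusted p = 0.835) and -0.010 rescaled (95% confidence interval -0.29 to 0.27, adjusted p = 0.971).

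Of the release factors none passed the test in either scaling. *Wapl* (ENSMUSG00000041408.18, chromosome 14, 34673928 to 34747983, plus strand), whose product opens the ring, had an FPKM of 14.6, 11.0 and 15.3 in control and of 11.1, 13.7 and 16.7 in deleted libraries. Its log2 fold change was 0.018 as deposited and -0.096 rescaled (95% confidence interval -0.38 to 0.19, adjusted p = 0.672). *Wapl* and *Smc1a* are the genes with promoter letters of the ZNF143 element shown above, and after rescaling *Smc1a* had the lowest and *Wapl* the second highest log2 fold change of the 10.

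*Pds5a* and *Pds5b* encode scaffolds that serve both release and protection of cohesin. *Pds5a* (ENSMUSG00000029202.12, chromosome 5, 65605721 to 65698273, minus strand) had a rescaled FPKM of 3.69, 3.71 and 3.91 in control and of 3.29, 3.41 and 3.45 in deleted libraries. The genotypes did not overlap and the log2 fold change was -0.15 (adjusted p = 0.403), while as deposited it was -0.040 with overlap. In this gene 374 exon bases are shared with *Gm42727* and *Gm42729* on the opposite strand. *Pds5b* (ENSMUSG00000034021.15, chromosome 5, 150673739 to 150810690, plus strand) had a rescaled FPKM of 6.68, 5.17 and 6.56 against 5.42, 4.74 and 4.83. The second control library lay among the deleted libraries, and the log2 fold change was -0.28 rescaled (SE 0.132, adjusted p = 0.247) and -0.17 as deposited (adjusted p = 0.676). With the own total of the third deleted library as divisor and the second control library left out, it was -0.42 (adjusted p = 0.0485 with limma). In that fit 1890 of all tested genes passed, against 997 on that scale with all libraries. No other fit of *Pds5b* passed.

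Ratios between 2 cohesin genes of the same library do not depend on the divisor or the size factor of that library, and 6 such ratios were compared. The ratio of *Smc3* to *Smc1a* was 0.657, 0.729 and 0.671 in control and 0.814, 0.843 and 0.821 in deleted libraries. It was higher in every deleted library than in every control, from a mean of 0.686 ± 0.0381 to 0.826 ± 0.0151 (SD, n = 3), a difference of 0.27 on the log2 scale. The two-sided exact permutation p was 0.1, the smallest possible, and 0.36 after Benjamini-Hochberg adjustment over the 6 ratios, so that no ratio could pass in this design. With any 1 library left out, the difference was between 0.24 and 0.31.

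The other 5 ratios overlapped between genotypes. *Rad21* to *Smc3* was 0.990, 0.867 and 1.00 against 0.909, 0.758 and 0.823 (log2 difference -0.20, exact permutation p = 0.2). The ratio of *Mau2* to *Nipbl*, the loader genes, was 0.876, 0.690 and 0.861 against 0.806, 1.20 and 1.16. The second and the third deleted libraries were above all others and the first lay among the controls (log2 difference 0.37, exact permutation p = 0.3). *Wapl* to *Nipbl*, a release factor over a loader, was 1.78, 1.30 and 1.84 against 1.61, 2.18 and 2.18, with the same 2 deleted libraries above all others (log2 difference 0.28, exact permutation p = 0.3). *Stag2* to *Stag1* was 1.87, 1.24 and 1.70 against 1.61, 1.84 and 1.71 (exact permutation p = 0.8), so that *Stag2* was the higher of the alternative subunits in all 6 libraries. The ratio of *Pds5b* to *Pds5a* was 1.81, 1.39 and 1.68 against 1.65, 1.39 and 1.40 (exact permutation p = 0.3), and *Pds5b* was the higher in all 6 libraries.

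**Figure D3:**
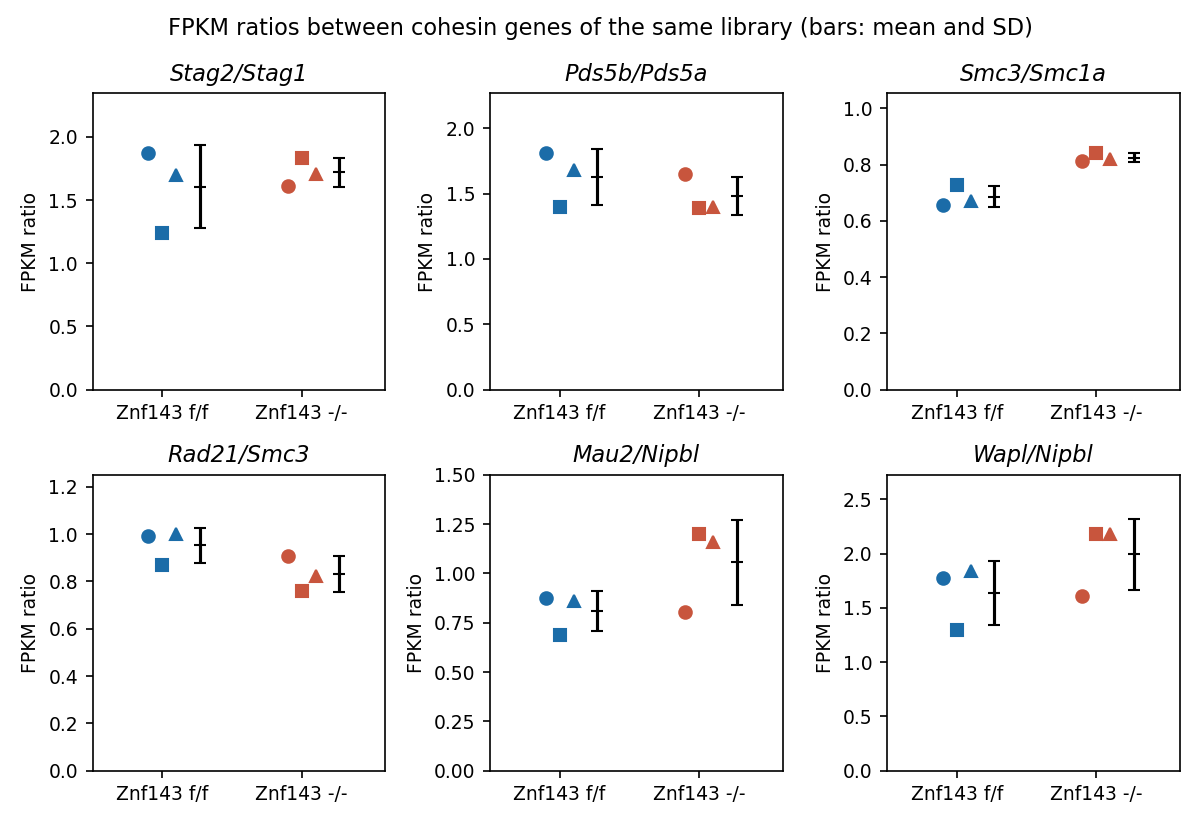
FPKM ratios between cohesin genes of the same library, in *Znf143 f/f* (blue) and *Znf143 -/-* (red), with axes from 0. Marks are single libraries, with the shape giving the replicate number, and black bars are mean and SD of 3 libraries. *Smc3* to *Smc1a* is the 1 ratio of 6 without overlap between genotypes.

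Inside a genotype, the 10 genes deviated in different directions. After rescaling, the SD of log2(FPKM + 0.1) over the 3 control libraries was 0.0415 for *Smc3*, 0.0462 for *Pds5a* and 0.0511 for *Smc1a*, and 0.228 for *Stag1* and 0.203 for *Pds5b*. The second control library was 0.24 above its genotype mean for *Stag1* and 0.11 above for *Nipbl*, and 0.23 below for *Pds5b* and 0.21 below for *Wapl*. Among the deleted libraries the first stood apart, with *Rad21* 0.17 and *Nipbl* 0.16 above the genotype mean and *Mau2* 0.20 and *Wapl* 0.13 below. The part of these library differences in the results above was not tested beyond leaving out each library.

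**Figure D4:**
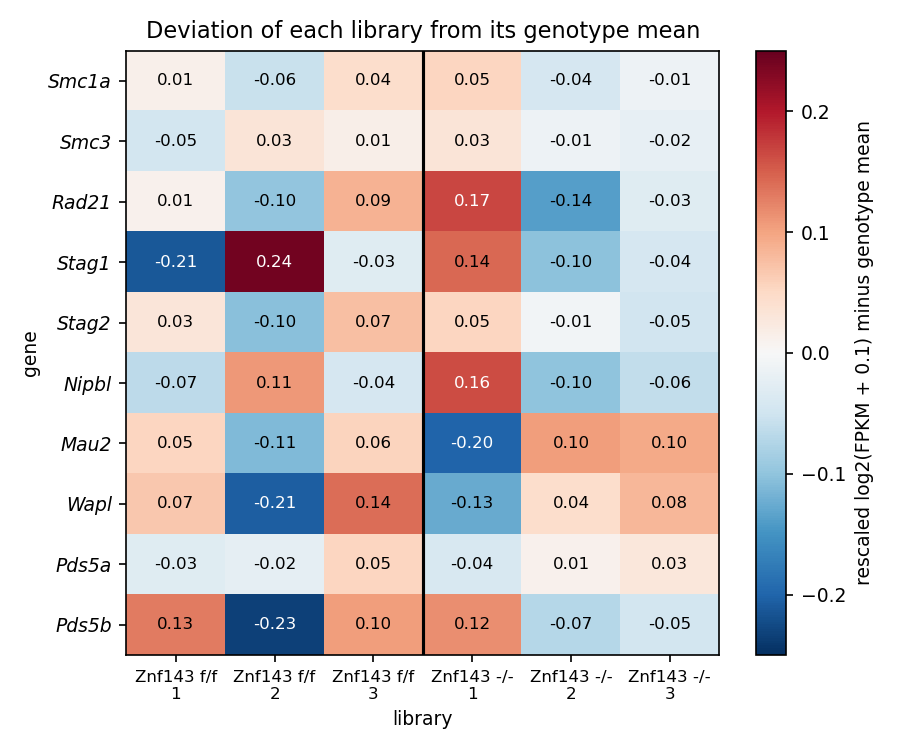
Deviation of each library from the mean of its genotype, for each cohesin gene, as rescaled log2(FPKM + 0.1), with red above and blue below the mean. The vertical line parts the 3 *Znf143 f/f* from the 3 *Znf143 -/-* libraries. The second *Znf143 f/f* library is high for *Stag1* and *Nipbl* and low for *Wapl* and *Pds5b*, and the first *Znf143 -/-* library is high for *Rad21* and *Nipbl* and low for *Mau2* and *Wapl*.

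Genes that modify, cleave or accompany cohesin, and the sister SMC complexes, were set beside these values as 7 lists. Of 36 genes listed, 35 were found (all but *Rad21l*) and 34 were tested. None passed an adjusted p of 0.05 with limma as deposited (4 higher and 0 lower at an unadjusted p under 0.05, where 13% of all genes were higher), after rescaling (7 higher and 4 lower at an unadjusted p under 0.05, where 12.4% and 11.8% of all genes were), or with limma's voom. The median log2 fold change of the 34 genes was 0.21 as deposited and 0.095 rescaled, and 20 of the 34 were higher after rescaling. The 10 cohesin genes had a median of -0.20 on that scale, and the difference between the lists was not tested.

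Among the genes of acetylation and protection, 2 of 5 were lower in deleted libraries. *Cdca5*, which encodes the sororin that protects cohesion and was the highest of that list, had a rescaled FPKM of 27.9, 25.7 and 27.2 against 32.6, 30.3 and 29.9, a log2 fold change of 0.20 (adjusted p = 0.189). In the list of cohesin cleavage, *Pttg1*, which encodes securin, the inhibitor of separase, had a log2 fold change of 0.030 rescaled (adjusted p = 0.953), and 2 of 2 genes were higher. In the list of cohesion establishment at the replication fork, 6 of 7 genes were higher after rescaling, 4 of them at an unadjusted p under 0.05, where 12.4% of all tested genes were, and 0 after adjustment. Its highest gene *Tipin*, a partner of TIMELESS, had a rescaled FPKM of 119, 112 and 125 against 133, 150 and 148, without overlap (log2 fold change 0.28, adjusted p = 0.126).

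The known roles of the meiotic cohesin genes lie in the germ line. *Rec8*, the meiotic kleisin, had an FPKM of 3.37 to 5.46 in control and of 4.07 to 4.23 in deleted libraries as deposited, and *Smc1b* was under the filter with at most 27 fragments in a library. In condensin, the complex that compacts mitotic chromosomes, 5 of 8 genes were higher after rescaling, and *Ncaph2*, its highest gene, had a log2 fold change of 0.12 (adjusted p = 0.421). For the SMC5/6 complex, which acts in DNA repair, 3 of 6 genes were higher, and the highest gene, *Nsmce1*, had a log2 fold change of 0.13 (adjusted p = 0.558).

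The 4 factors of loop anchors and enhancer contact (*Ctcf*, *Yy1*, *Ldb1* and *Maz*) were, of the 7 lists, the closest to the cohesin genes in direction. After rescaling 4 of 4 were lower, where 49.3% of all tested genes were, with a median of -0.20. The rescaled log2 fold change was -0.13 for *Ctcf*, -0.27 for *Yy1* and -0.048 for *Maz* (adjusted p = 0.468, 0.182 and 0.817 with limma). *Ldb1*, which bridges enhancers and promoters and was the highest of the list, had a rescaled FPKM of 43.6, 44.7 and 41.9 against 34.3, 36.7 and 34.0, without overlap between genotypes. Its log2 fold change was -0.31 (SE 0.0751) and missed the threshold after adjustment (adjusted p = 0.0628), and as deposited it was -0.20 (adjusted p = 0.515). The list had a median of -0.084 as deposited, with 3 of 4 genes lower.

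The cells themselves also differed between genotypes in marker genes, and the part of that difference in the cohesin values was not tested. In bulk libraries, fewer cells of a type and less RNA per cell cannot be told apart. *Ly6a*, which encodes the SCA-1 antigen of the LSK gate and was the highest of the 8 HSLAM markers, rose from a rescaled FPKM of 267 ± 24.9 to 582 ± 26.6 (SD, n = 3, adjusted p = 0.00453), and *Mecom*, a stem cell transcription factor, fell from 9.24 ± 0.165 to 6.30 ± 0.423 (adjusted p = 0.0208, and 0.182 as deposited). The other 6 HSLAM markers did not pass. After rescaling, 6 of the 8 markers, *Mecom* among them, were lower, where 49.3% of all tested genes were. Their median log2 fold change was -0.35. The summed FPKM of the 8 was 476 to 532 in control and 755 to 803 in deleted libraries after rescaling, most of it from *Ly6a*. *Cd48*, whose product the sort excluded, rose from 10.2 ± 0.851 to 20.0 ± 0.472 (adjusted p = 0.00307), and *Flt3*, a receptor of multipotent progenitors, from 5.19 ± 0.214 to 15.9 ± 0.234 (adjusted p = 0.000415). The lymphoid marker *Il7r* had at most 11 fragments in a library.

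Markers of other lineages moved in part. *Elane*, a neutrophil protease, rose from a rescaled FPKM of 0.448 ± 0.363 to 7.92 ± 4.35 (adjusted p = 0.0283), and it was the 1 of 4 tested myeloid markers that passed. *Lyz2*, the highest myeloid marker, had 556 ± 19.7 and 426 ± 7.84 (adjusted p = 0.0729). The summed level of the 5 myeloid markers was 535 to 573 against 431 to 446, most of it from *Lyz2*. Of the 4 tested myeloid markers, *Lyz2* was the 1 that was lower, and their median rescaled log2 fold change was 0.79. T cell markers summed to at most 0.346, with *Cd4* the highest of those matched by symbol, and *Cd8a* was not matched. None of 4 erythroid, 4 megakaryocyte and 8 proliferation markers passed in either scaling. Their summed rescaled levels were 39.7 to 83.9 against 39.7 to 46.2, 406 to 501 against 529 to 847, and 226 to 244 against 248 to 252, with *Hbb-bs*, *Pf4* and *Birc5* as the highest genes. After rescaling, 4 of the 8 proliferation genes were lower and 4 higher, with a median log2 fold change of 0.040. The part of cell division in the cohesin values was not tested.

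The mean profile of the 10 cohesin genes, each centred on its own mean of rescaled log2(FPKM + 0.1), was 0.11, 0.067 and 0.16 in control libraries and -0.075, -0.14 and -0.12 in deleted libraries. Among 12548 other genes whose mean FPKM was 1 or more, the genes most like it over the 6 libraries were *AC107711.1* (Pearson r = 0.996), *9430092D12Rik* (r = 0.996) and *Klhl9* (r = 0.995), which encodes an adaptor of CUL3 ubiquitin ligases. *Klhl9* had a rescaled FPKM of 13.2, 12.8 and 15.2 in control and of 8.92, 7.48 and 8.48 in deleted libraries. These r values are a description over 6 libraries that share size factors and fall into 2 genotypes, and they were the highest of many.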

How the data were processed

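RNA-seq libraries of HSLAM cells from 3 *Znf143 f/f* and 3 *Znf143 -/-* mice were grouped by their sample titles. According to the methods of the study, paired-end reads of SMART-Seq libraries, a kit that does not mark strand, were trimmed (TrimGalore) and aligned to the GRCm38 build (STAR), and the authors obtained fragments per gene by FeatureCounts and tested genotypes by DESeq2. The authors deposited 1 table with the FPKM of each library and the gene length. Its columns of mean normalized count, log2 fold change, standard error, test statistic and p-values hold the comparison of the authors and were not used. The cohesin genes and all gene lists were chosen with earlier results of these data known.

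Fragments were recovered from FPKM times length and were whole within 0.05 for 99.986% of 138696 values. Genes whose mean FPKM reached 0.1 entered a two-sided test by limma 3.58.1 (R 4.3.3, lmFit and eBayes with a variance trend) of log2(FPKM + 0.1), and p-values were adjusted by the Benjamini-Hochberg method over all tested genes. A fold change on this scale understates that of low genes. Size factors were medians of ratios over 19046 genes above 0 in every library, scaled to a geometric mean of 1. Ratios of genes were tested by two-sided exact permutation. Intervals are 95% confidence intervals of limma. Python 3.11.15 with numpy 2.4.6 and pandas 2.3.3 was used. The libraries are from separate mice.

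The fit was tested on simulated fragments of 3 against 3 libraries with changed genes among 19200. It called 95 of 100 genes changed by 1 on the log2 scale and 21 of 100 changed by 0.5, with 9 of 125 calls in unchanged genes. The simulation had a fixed dispersion of 0.01, divided each library by its own total and changed only genes with many fragments. The divisor fault of the third deleted library was not simulated, so these rates may not hold for the FPKM as deposited. Named besides the cohesin genes are the targeted gene, the genes of each list that passed as deposited or rescaled, the gene of each list with the highest mean, and the 3 genes of the most similar profile. *Smc1b*, *Il7r*, *Ncapg* and *Ctcf* with the other loop anchor factors were added after their values were seen. Some marker genes are not reported here. Alternatives were another scaling, pseudocounts of 0.01 and 1, no filter or a mean FPKM of 1, limma's voom on recovered fragments with TMM factors, no variance trend, the replicate number as a block, and each library left out.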

Additional observations from a re-analysis of the deposited data

How the results depend on the processing

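Over 330 alternative fits of the 10 cohesin genes, 293 kept direction and side of the threshold, 8 newly passed it, 6 no longer passed it and 23 reversed. *Smc1a*, *Rad21*, *Stag1*, *Nipbl* and *Pds5b* were lower in *Znf143 -/-* in every fit. Against the FPKM as deposited, rescaling brought the log2 fold change of *Smc1a* to -0.42, of *Mau2* to -0.010 and of *Wapl* to -0.096, and voom on recovered fragments to -0.43, -0.013 and -0.10, with 1 cohesin gene (*Smc1a*) passing in each. *Wapl* was at -0.068 with the own total of the third *Znf143 -/-* library. Filters and pseudocounts changed no call of a cohesin gene, as deposited or rescaled, and the fit without a variance trend changed none as deposited. Rescaled and without that trend, 0 cohesin genes passed (*Smc1a* at -0.42, adjusted p = 0.0709 with limma). These fits of rescaled values were chosen after seeing the data. With 1 library left out as deposited, the log2 fold change was -0.13 to 0.025 for *Smc3*, -0.11 to 0.037 for *Stag2*, -0.047 to 0.28 for *Mau2*, -0.13 to 0.16 for *Wapl* and -0.16 to 0.060 for *Pds5a*. After rescaling it was -0.45 to -0.40 for *Smc1a*, -0.44 to -0.29 for *Rad21*, -0.46 to -0.32 for *Nipbl* and -0.065 to 0.090 for *Mau2*. On the own total it was -0.47 to -0.35 for *Smc1a*, -0.42 to -0.26 for *Rad21*, -0.39 to -0.32 for *Nipbl*, -0.080 to 0.16 for *Mau2*, -0.21 to 0.034 for *Wapl* and -0.42 to -0.17 for *Pds5b*. In the last 2 scalings 0 to 3 cohesin genes passed, 3 (*Smc1a*, *Rad21* and *Nipbl*) after rescaling without the first *Znf143 -/-* library and 3 (*Smc1a*, *Rad21* and *Pds5b*) on the own total without the second *Znf143 f/f* library. In these 2 fits, 2113 and 1890 of all tested genes passed, against 1154 and 997 with all libraries. Of the 7 lists, 0 to 1 gene passed as deposited and on the own total (*Ncapg*) and 0 to 2 after rescaling (*Ncapg* and *Yy1*), each without the first *Znf143 -/-* library. Without that library, 1518 of all tested genes passed as deposited, 1899 on the own total and 2113 after rescaling. The *Stag2* to *Stag1* difference was -0.057 to 0.24, negative only without the second *Znf143 f/f* library. The cause of these shifts was not tested. Of all tested genes, 833 passed as deposited (529 higher and 304 lower), 1154 after rescaling (578 and 576) and 1408 with voom. With 1 library left out, the counts were 189 to 1518 as deposited, 223 to 2286 after rescaling and 189 to 1899 on the own total, each lowest without the third *Znf143 -/-* library.

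Whether the replicate numbers of the labels mark littermate pairs could not be told from the values. Same-numbered libraries deviated from their genotype means with correlations of -0.17, -0.14 and 0.093, and differently numbered ones with -0.12 to 0.17. Deviations from a mean of 3 libraries are not independent, so these correlations can neither show nor exclude pairs. With the replicate number as a block, 864 genes passed as deposited and 191 after rescaling, and in the latter 0 cohesin genes passed (*Smc1a* at -0.42, adjusted p = 0.143 with limma). Each cohesin gene had at least 2140 fragments in every library, and what greater depth would change was not tested.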
